A study of Homo sapiens with 14 samples.

Results

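The data concern 5 neural genes in HEK293T cells: NES, INA, NEFM and NEFH, which encode intermediate filament proteins of neural cells, and SV2A, which encodes a membrane protein of synaptic vesicles. They were measured in HEK293T cells with a knockout of SETD2 and in wild type HEK293T cells, with 3 RNA libraries listed for each genotype. HEK293T is an established human cell line from embryonic kidney with a gene for the large T antigen of SV40, and SETD2 is the enzyme that trimethylates lysine 36 of histone H3. The labels name no other agent or allele, and they do not say how the knockout was made or whether it is a single clone. The deposited tables give 1 FPKM value (a fragment count corrected for transcript length and for the number of mapped fragments) per transcript and genotype, with no value for a single library, so no spread between libraries can be shown and the depth of each library is unknown. The 8 samples of chromatin immunoprecipitation were left out. In RNA of whole cultures, fewer cells that express a gene and less of its RNA per cell cannot be told apart.

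The members were taken by position: every transcript whose hg19 locus contained a fixed point in 1 of the 5 genes. This gave 12 of the 204092 transcripts of the tables, at 5 of 35671 loci. The genes were selected on the deposited FPKM and test values of this comparison, so all their values and folds are a description and give no independent support. Gene symbols do not occur in the tables. The names rest on position and on locus length, which was 8635 bases for NES against a RefSeq gene span of 8645, 14565 against 14527 for SV2A, 13189 against 13209 for INA and 11161 against 11173 for NEFH. The NEFM locus, at 6930 bases against 5333, was 1597 bases longer than the gene, so some of its 7 rows may not be transcripts of NEFM.

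Intermediate filaments are built from coiled-coil proteins that pair and pack into ropes. Neurons use the neurofilament proteins, light (NEFL), medium (NEFM) and heavy (NEFH), together with alpha-internexin (INA), while nestin (NES) marks dividing neural progenitors and co-assembles with vimentin. SV2A is a glycoprotein of synaptic and endocrine vesicles and the binding site of the antiepileptic drug levetiracetam. HEK293 cells have been described as expressing some neuronal genes, neurofilament genes among them.

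Transcripts of NES, SV2A and INA were lower in the SETD2 knockout than in wild type cells, while the NEFM and NEFH loci stayed under 1 FPKM in both genotypes in the table of tests. Of the 12 transcripts, 5 had been tested by the authors, and 3 of them passed a q-value of 0.05 in the authors' deposited table, all lower in the knockout. Over all 85852 tested transcripts 0.255% passed, and 0.192% passed as lower in the knockout. Because the choice of genes used this contrast, nothing is read from the difference between these shares. A filter at 1 FPKM in either genotype of the table of tests was passed by 3 genes. NES passed it only through its wild type value, so a difference was built into its passing, while SV2A and INA passed it in both genotypes. In the tracking table, the other deposited table, the NEFM sum also passed it, at 1.199 FPKM in knockout cells. In knockout cells NES stood at 0.149 FPKM and NEFH at 0.172 FPKM in the table of tests, with intervals that overlapped.

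The deposited tables differ in their knockout values, and this touches every knockout level, interval and fold given here. Over 78707 tested transcripts the ratio of the tracking value to the value of the table of tests had a median of 0.858 in knockout cells, with 0.652 and 2.10 as its 5th and 95th percentiles. In wild type cells the median was 0.976 over 82544 transcripts, with 0.974 and 0.980 as the same percentiles. For the called transcripts the knockout ratio was 1.54 for NES, 0.911 for INA and 0.926 for SV2A. No source used here says which libraries entered each table. The q-values and the intervals may therefore rest on different sets of knockout libraries.

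**Figure D1:**
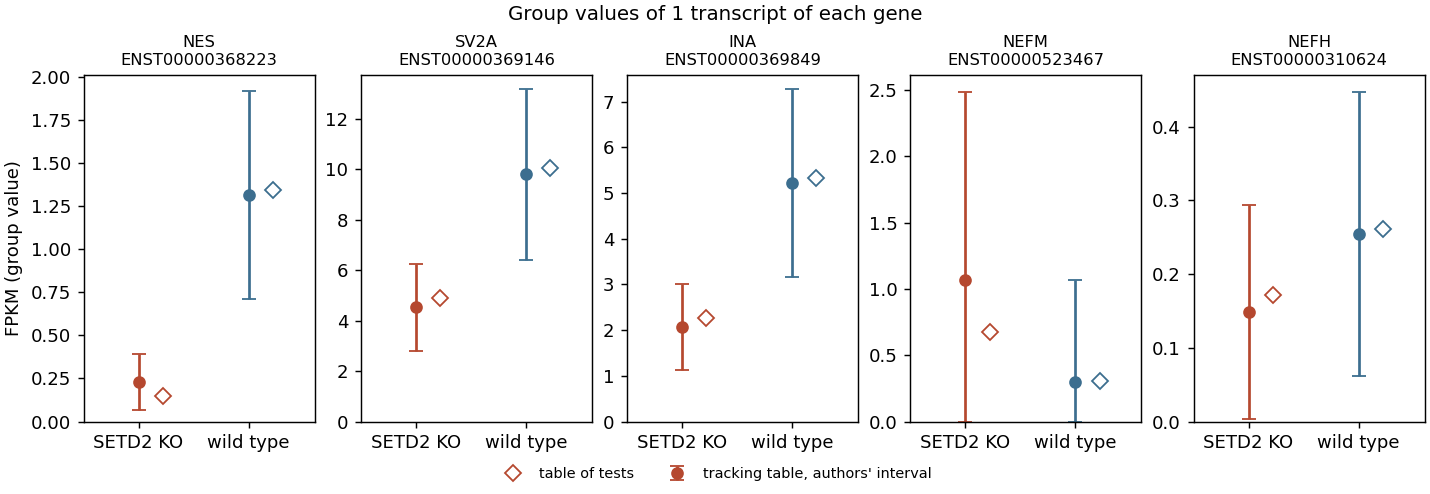
FPKM in SETD2 knockout and wild type cells for 1 transcript of each gene. Filled circles with bars are the tracking-table values with the authors' intervals, and open diamonds are the values of the table of tests; the bars of the genotypes are apart for NES, SV2A and INA and overlap for NEFM and NEFH.

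NES showed the largest fall of the 5 genes. It lies on chromosome 1 at 156638555-156647189 (hg19) and had 1 transcript in the tables, ENST00000368223, at 0.149 FPKM in knockout cells and 1.34 FPKM in wild type cells, a 9.01-fold lower level (q = 0.0220 in the authors' deposited table). The tracking table gave 0.229 FPKM in knockout cells, with an interval of 0.0675 to 0.390, and 1.31 FPKM in wild type cells, with an interval of 0.712 to 1.91. The intervals did not overlap, as was the case for 0.632% of all tested transcripts. On the tracking values the fall was 5.74-fold. The size of the NES fall therefore depended on the table by more than 1.5 times, its direction did not. Among the 119 called falls with a value above 0 in both genotypes, 7 were larger than that of NES. The level itself was low: of the loci with at least 1 FPKM in a genotype, 1.32% lay below NES in knockout cells and 7.06% lay below it in wild type cells.

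INA, on chromosome 10 at 105036920-105050108, encodes alpha-internexin, a filament protein of early neurons. Its only transcript, ENST00000369849, stood at 2.27 FPKM in knockout cells and 5.34 FPKM in wild type cells, a 2.35-fold lower level (q = 0.0220 in the authors' deposited table). The tracking table listed 2.07 FPKM (1.14 to 3.01) for knockout cells and 5.21 FPKM (3.15 to 7.27) for wild type cells. These intervals lay close to each other but did not overlap. Among the same 119 called falls, 90 were larger than that of INA.

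SV2A, the vesicle protein gene on chromosome 1 at 149874870-149889434, had the highest listed level of the 5 genes in both genotypes, with intervals that overlapped those of INA. Its main transcript, ENST00000369146, stood at 4.88 FPKM in knockout cells and 10.04 FPKM in wild type cells (q = 0.0220 in the authors' deposited table). In the tracking table it had 4.52 FPKM in knockout cells, with an interval of 2.80 to 6.24, and 9.80 FPKM in wild type cells, with an interval of 6.41 to 13.2. The gap between these intervals was small. The second transcript, ENST00000369145, was listed at 0 FPKM in knockout cells and at 0.359 FPKM in wild type cells and was not called (p = 0.108 in the authors' deposited table). Summed over both transcripts, SV2A was 2.13-fold lower in the knockout. Of the 119 called falls, 109 were larger, so SV2A was among the smaller changes that the authors' test called. The q-value shared by these called transcripts is the smallest in the deposited table, so it ranks none of them above another.

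The promoters of NES and INA are printed because these filament genes were both lower in the knockout. The letters are the 250 bases before the RefSeq gene start, 5′ to 3′ on the gene's strand, from GRCh38.p14, at chr1:156677408-156677657 on the minus strand for NES and chr10:103276888-103277137 on the plus strand for INA. Capitals mark, on either strand, the GC box GGGCGG and the letters CAGCACC and GGACAG, which are parts of the RE1 element bound by REST, a repressor of neuronal genes.
NES: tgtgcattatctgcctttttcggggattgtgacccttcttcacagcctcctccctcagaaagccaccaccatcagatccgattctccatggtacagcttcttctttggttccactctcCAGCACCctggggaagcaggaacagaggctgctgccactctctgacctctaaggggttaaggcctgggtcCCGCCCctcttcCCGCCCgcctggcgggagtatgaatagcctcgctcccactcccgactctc
INA: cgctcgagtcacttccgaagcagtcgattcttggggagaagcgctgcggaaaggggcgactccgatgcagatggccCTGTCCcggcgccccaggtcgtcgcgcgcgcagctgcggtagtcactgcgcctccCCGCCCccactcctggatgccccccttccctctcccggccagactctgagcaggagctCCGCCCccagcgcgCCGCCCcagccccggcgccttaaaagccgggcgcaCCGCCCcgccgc
The GC box occurred 2 times before NES and 4 times before INA, against at least once in 42.6% of 35116 promoter windows of the same length. CAGCACC occurred 1 time before NES and 0 times before INA, and 6.16% of all windows held it. GGACAG occurred 0 times before NES and 1 time before INA, and 17.2% of all windows held it. Neither window held CCAAT or TATAAA, which stood in 32.0% and 10.7% of windows. The core letters of SOX sites, ACAAAG, were found in neither window and in 13.7% of all. The E-box CANNTG occurred 0 times before NES and 2 times before INA, and 61.8% of windows held it. The marked matches do not overlap each other. The window was richer in G and C for INA, at 72.8%, than for NES, at 58.0%, which equals the median of all windows. The RefSeq window listed for SV2A belongs to a start 10853 bases inside the gene span and is not shown. Such matches describe the letters only.

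NEFM, the medium neurofilament gene on chromosome 8 at 24769678-24776607, was barely detected. The transcript ENST00000221166 was listed at 3.61e-06 FPKM in knockout cells and at 0 FPKM in wild type cells. Of the 7 rows at the locus, 2 were at 0 in both genotypes. Only ENST00000523467 had been tested, with 0.675 FPKM in knockout cells and 0.307 FPKM in wild type cells (p = 0.462 in the authors' deposited table). Its intervals in the tracking table, 0 to 2.48 in knockout cells and 0 to 1.07 in wild type cells, both reached 0 and overlapped. The remaining 3 rows reached at most 0.0806 FPKM in knockout cells and 0.153 FPKM in wild type cells. Summed over the locus, NEFM stood at 0.840 FPKM in knockout cells and 0.517 FPKM in wild type cells in the table of tests, and at 1.199 FPKM in knockout cells and 0.504 FPKM in wild type cells in the tracking table, and no test of the sum was possible.

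NEFH, the heavy neurofilament gene on chromosome 22 at 29876219-29887379, had 1 transcript, ENST00000310624, which the authors had not tested. It stood at 0.172 FPKM in knockout cells and 0.261 FPKM in wild type cells. The tracking intervals were 0.00325 to 0.294 in knockout cells and 0.0617 to 0.447 in wild type cells, and they overlapped widely. At this level a change in NEFH was not detectable from these tables.

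The order of the 5 genes by FPKM, which is scaled to transcript length, was SV2A, INA, NEFM, NEFH and NES in knockout cells, and SV2A, INA, NES, NEFM and NEFH in wild type cells, by the locus sums of the table of tests. In the tracking table NES, at 0.229 FPKM, stood above NEFH, at 0.149 FPKM, in knockout cells, and the wild type order was that of the table of tests. By the authors' intervals, SV2A and INA overlapped in both genotypes, so their order is not settled. INA and NES did not overlap in wild type cells. NES and NEFH overlapped in knockout cells, and NES overlapped the tested NEFM transcript in wild type cells. The order of NES and NEFH in knockout cells thus turned with the table.

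**Figure D2:**
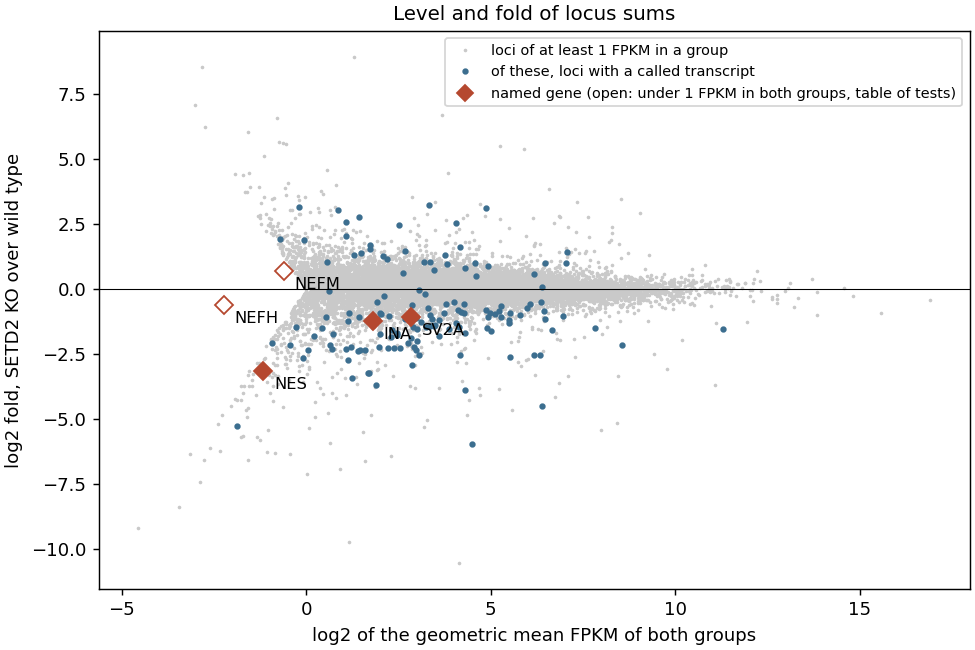
Log2 fold of the locus sum (SETD2 knockout over wild type) against the log2 geometric mean FPKM of both genotypes, for 12467 loci of at least 1 FPKM in a genotype. NES lies at the low end of the levels with a log2 fold of -3.17, INA and SV2A lie at -1.23 and -1.09 among the called loci, and NEFM and NEFH are drawn open because they stayed under 1 FPKM in the table of tests, from which all points are taken.

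Placed among 12467 loci of at least 1 FPKM in a genotype and above 0 in both, whose median log2 fold was 0.06, NES had 0.826% of loci with a lower fold, INA 4.15% and SV2A 4.90%. A fold lower than that of NES was reached by 103 loci, 95 of them without a called transcript. One lower than that of INA was reached by 517 loci, 452 of them without a called transcript, and one lower than that of SV2A by 611 loci, 535 of them without one. In the tracking table the log2 folds were -2.52 for NES, -1.33 for INA and -1.17 for SV2A, against -3.17, -1.23 and -1.09 in the table of tests.

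The loci around each gene were compared with the gene itself, since genes of a region can change together. Within 1 Mb of NES, 31 other loci had a median log2 fold of -0.08 in the table of tests and 0.07 in the tracking table, and 19 of them were lower in the knockout. Around SV2A the median over 25 loci was 0.11, with 10 lower. Around INA it was -0.04 over 26 loci in the table of tests and 0.06 in the tracking table, with 13 lower. Of these 82 neighbouring loci, 0 had a transcript called at a q-value of 0.05 by the authors' test and 7 had one with an unadjusted p under 0.05. Over all loci with a tested transcript 1.5% had a called one. The share of all loci with an unadjusted p under 0.05 was not computed, so nothing is read from the 7. A sum at least 1.5-fold lower in the knockout was seen at 6 of 31 loci around NES, 2 of 25 around SV2A and 2 of 26 around INA. Over all loci of at least 1 FPKM in a genotype the share was 11.1%. Around NEFM 5 loci had a median of 0.46, and around NEFH 21 loci had one of 0.05. Over the whole of chromosome 10, which holds INA, the median was 0.07 over 498 loci, and over chromosome 1, which holds NES and SV2A, it was 0.07 over 1322 loci.

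**Figure D3:**
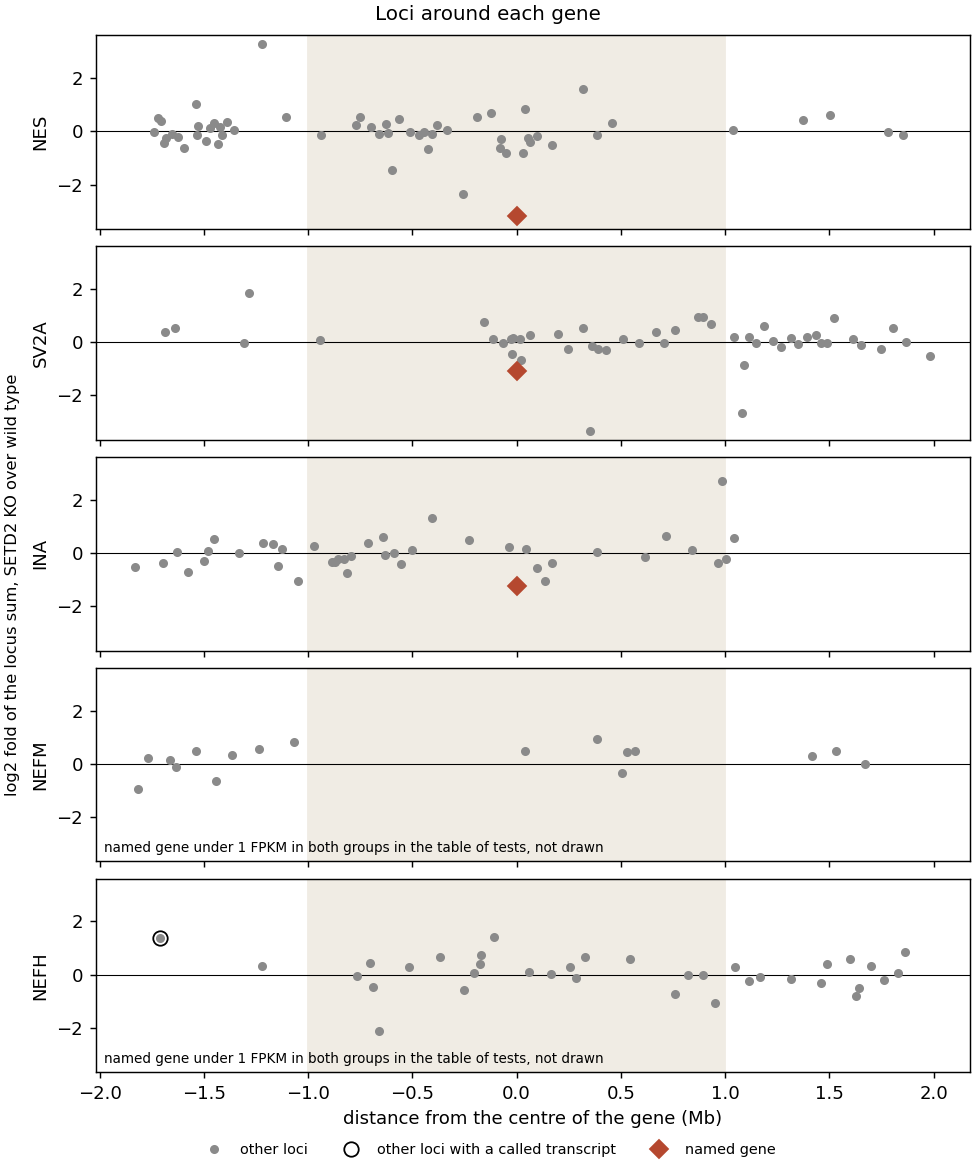
Log2 fold of the locus sum (SETD2 knockout over wild type) against the distance in Mb from the centre of each gene, for loci of at least 1 FPKM in a genotype; the shaded band spans 1 Mb on either side. NES, SV2A and INA lie below most of the loci around them, whose medians within 1 Mb are -0.08, 0.11 and -0.04 in the table of tests. The genes were selected on these values, so their place is a description only.

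No other intermediate filament gene with a locus of its own had a called transcript. Of the 5 such genes of at least 1 FPKM, NEFL, LMNA, LMNB1 and BFSP1 had higher values in the knockout and DES had a lower one. A list of 16 such genes was placed by hg19 position in the same way. A gene was used only where its locus was within 20% of the RefSeq span and held no other coding gene, which left 6. NEFL, the light neurofilament gene, lies next to NEFM and was the most abundant neurofilament gene, with 28.5 FPKM in knockout cells and 20.4 FPKM in wild type cells. This difference was not called (p = 0.0161, q = 0.991 in the authors' deposited table), and the intervals of 19.6 to 37.9 in knockout cells and 13.4 to 26.4 in wild type cells overlapped. LMNA, which encodes the A-type lamins of the nuclear envelope, had a sum of 234.4 FPKM in knockout cells and 170.3 FPKM in wild type cells, and LMNB1, a B-type lamin gene, one of 305.0 FPKM in knockout cells and 245.3 FPKM in wild type cells. BFSP1, a filament gene of the eye lens, stood at 3.88 FPKM in knockout cells and 2.91 FPKM in wild type cells. DES, the muscle filament gene, stood at 0.0683 FPKM in knockout cells and 1.64 FPKM in wild type cells, but at 0.472 FPKM in the knockout in the tracking table. Its log2 fold was -4.59 in the table of tests, lower than that of NES, and -1.77 in the tracking table. Its 3 tested transcripts were not called. None of the 31 tested transcripts of these genes passed a q-value of 0.05 in the authors' test. Over all tested transcripts only 0.255% passed, so the lack of a call does not set these filament genes apart. Of the 31, 2 had an unadjusted p under 0.05, as did 2.38% of all tested transcripts. Over the 5 genes of at least 1 FPKM in a genotype the median log2 fold was 0.41, beside 0.06 over all loci, and 4 were higher.

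Among vesicle and exocytosis genes, SYP also had a transcript called lower in the knockout. The 18 genes reported included 8 with their own locus by the same rule, and 5 of these reached 1 FPKM in a genotype. SYP, or synaptophysin, a major membrane protein of synaptic vesicles, had ENST00000263233 at 4.13 FPKM in knockout cells and 9.27 FPKM in wild type cells (q = 0.0220 in the authors' deposited table). Its intervals, 2.74 to 6.93 in knockout cells and 5.48 to 12.6 in wild type cells, overlapped.

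No transcript of CPLX1, SYNGR1, SYT1 or SYPL1 was called. CPLX1, a complexin that clamps and promotes fusion, stood at 5.93 FPKM in knockout cells and 9.57 FPKM in wild type cells. SYNGR1, a vesicle membrane protein gene, stood at 64.8 FPKM in knockout cells and 66.9 FPKM in wild type cells, with the direction turned in the tracking table, at 70.04 FPKM in knockout cells and 65.3 FPKM in wild type cells. SYT1, the calcium sensor of fast release, stood at 3.83 FPKM in knockout cells and 2.56 FPKM in wild type cells, and SYPL1, a broadly expressed relative of SYP, at 45.6 FPKM in knockout cells and 28.6 FPKM in wild type cells. SV2B, a close relative of SV2A that had no tested transcript, was listed at 0 FPKM in knockout cells and at 0.00608 FPKM in wild type cells. The lists were chosen with results of these data known, so their counts are no independent evidence. In all, 1 of the 21 tested transcripts reported passed, lower in the knockout, beside 0.192% of all tested transcripts. Over the 5 genes the median log2 fold was -0.05 in the table of tests and 0.10 in the tracking table, beside 0.06 and 0.08 over all loci, with 3 lower and 2 higher in the table of tests.

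**Figure D4:**
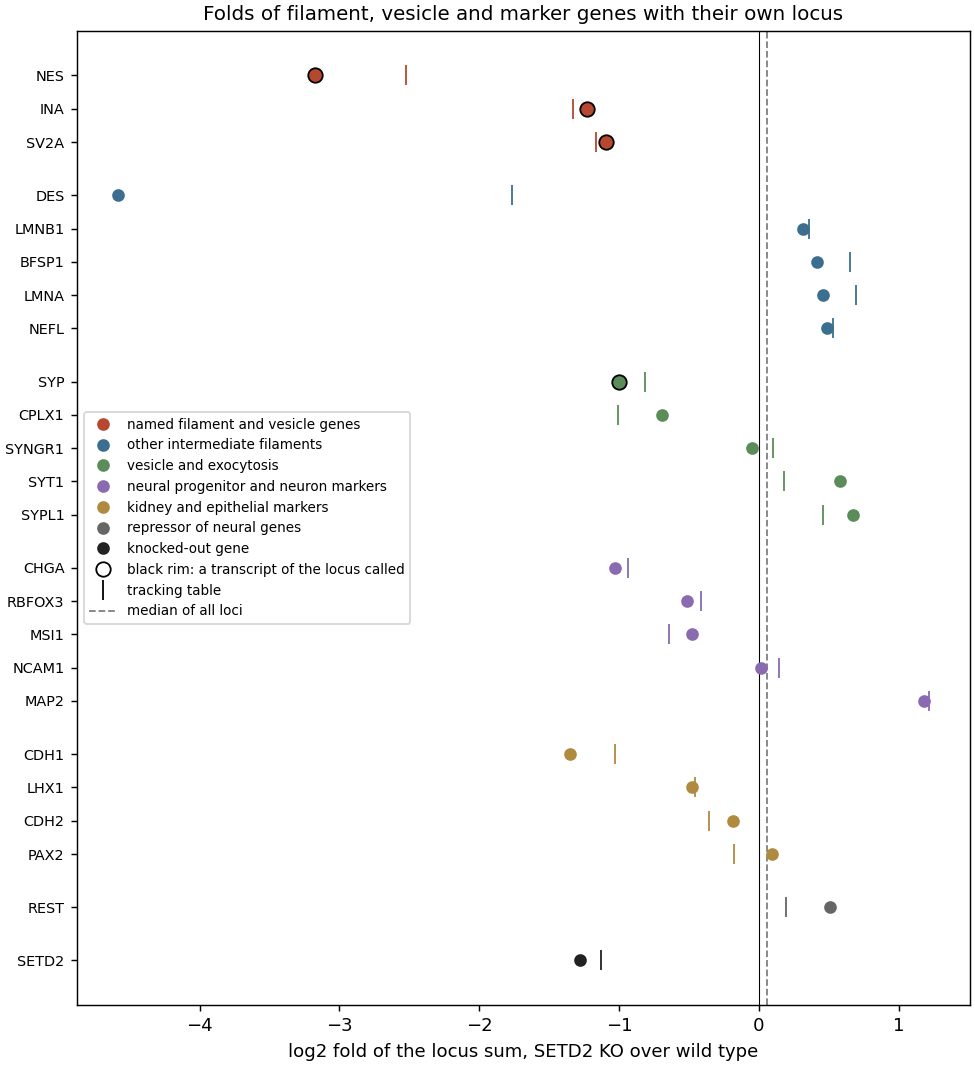
Log2 fold of the locus sum (SETD2 knockout over wild type) for genes with their own locus and at least 1 FPKM in a genotype, by list; circles are the table of tests, ticks the tracking table, and a black rim marks a locus with a called transcript. NES, INA and SV2A lie at or below -1.09; of the other filament genes DES lies lowest, at -4.59, and NEFL, LMNA, LMNB1 and BFSP1 lie above 0.

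Neural and kidney markers were set beside these genes to show what the cells express. Of 19 neural progenitor and neuron genes, 9 had their own locus and 5 reached 1 FPKM in a genotype. MSI1, an RNA-binding protein of neural progenitors, stood at 22.2 FPKM in knockout cells and 31.0 FPKM in wild type cells, and NCAM1, a neural adhesion molecule, at 19.2 FPKM in knockout cells and 19.01 FPKM in wild type cells. RBFOX3, the neuronal nuclear antigen, stood at 8.42 FPKM in knockout cells and 12.04 FPKM in wild type cells. CHGA, a protein of secretory granules, had 0.743 FPKM in knockout cells and 1.52 FPKM in wild type cells, and MAP2, a dendritic microtubule protein, 1.57 FPKM in knockout cells and 0.690 FPKM in wild type cells. RBFOX3 is itself a defining neuronal gene, while 3 others on the list were at or near 0. DCX stood at 0.0492 FPKM in knockout cells and 0.0350 FPKM in wild type cells, STMN2 at 0 FPKM in knockout cells and 0.0703 FPKM in wild type cells, and ELAVL4 at 0 in both. GAP43, the remaining gene of the 9, stood at 0.266 FPKM in knockout cells and 0.707 FPKM in wild type cells, with no call. None of the 28 tested transcripts of these 9 genes passed a q-value of 0.05, which 0.255% of all tested transcripts did. Of the 28, only 1, a CHGA transcript, had an unadjusted p under 0.05 (p = 0.0076 in the authors' deposited table). UCHL1, also on the list, was left out because its locus was longer than the rule allowed. That locus held 2 transcripts called lower in the knockout, and summed to 17.6 FPKM in knockout cells and 403.1 FPKM in wild type cells. The summed level of the 9 genes was 52.5 FPKM in knockout cells and 65.0 FPKM in wild type cells. The 5 genes of at least 1 FPKM had a median log2 fold of -0.48, and of -0.41 in the tracking table. Over all loci the medians were 0.06 and 0.08. Of the 5 genes, 3 were lower in the knockout and 2 higher in the table of tests.

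Of 10 kidney and epithelial genes, 6 had their own locus. PAX2, a transcription factor of the developing kidney, stood at 4.60 FPKM in knockout cells and 4.30 FPKM in wild type cells, with the direction turned in the tracking table, at 3.72 FPKM in knockout cells and 4.20 FPKM in wild type cells. LHX1, another, stood at 1.28 FPKM in knockout cells and 1.78 FPKM in wild type cells. CDH2, the neural and mesenchymal cadherin, stood at 8.28 FPKM in knockout cells and 9.40 FPKM in wild type cells, and CDH1, the epithelial cadherin, at 0.432 FPKM in knockout cells and 1.102 FPKM in wild type cells. PAX8 stayed under 1 FPKM in both genotypes, and UMOD, which marks mature tubules, was at 0 in both. None of the 14 tested transcripts passed a q-value of 0.05, and 1 had an unadjusted p under 0.05, beside 0.255% and 2.38% of all tested transcripts. This was the PAX2 transcript ENST00000355243, at 1.03 FPKM in knockout cells and 2.20 FPKM in wild type cells (p = 0.0035 in the authors' deposited table). The summed level of the 6 genes was 14.99 FPKM in knockout cells and 16.7 FPKM in wild type cells. The 4 genes of at least 1 FPKM had a median log2 fold of -0.33, and of -0.41 in the tracking table. Over all loci the medians were 0.06 and 0.08. Of the 4 genes, 3 were lower in the knockout and 1 higher in the table of tests.

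The regulators named above were measured as well. REST, the repressor that binds RE1 elements, stood at 9.53 FPKM in knockout cells and 6.70 FPKM in wild type cells over its 4 transcripts, and in the tracking table at 7.47 FPKM in knockout cells. None of the 4 was called, with a smallest p of 0.0763 in the authors' deposited table. SETD2 itself stood at 5.64 FPKM in knockout cells and 13.7 FPKM in wild type cells, summed over 9 transcripts. None of its 6 tested transcripts was called, and 1 had an unadjusted p under 0.05 (p = 0.0379 in the authors' deposited table). The libraries labelled as knockout thus still held RNA of the SETD2 locus. Its sum was 2.42-fold lower in the knockout, and the tracking table gave 6.10 FPKM in knockout cells and 13.3 FPKM in wild type cells. Each tested transcript was lower in the knockout in the table of tests. The sum itself was not tested.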

How the data were processed

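SETD2 knockout and wild type HEK293T cells had 3 RNA libraries each, made after removal of ribosomal RNA, per the labels' protocols. For 1 wild type library the labels give a ChIP protocol instead. Separate cultures are not stated, so the authors' p-values may measure technical spread only. The submitters' processing notes name TopHat, Cuffdiff, Bowtie 1.1.2 and hg19, without role or order; the annotation and strand setting are not given in the sources used here.

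Per the file headers, the authors deposited FPKM per transcript and genotype, with interval bounds in FPKM whose level is not given, and for each test a log2 fold, a test statistic (a score), a p-value and a q-value. The deposited log2 fold is wild type over knockout and was turned round; it differed from the recomputed one by at most 1.16e-05 over the member rows.

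FPKM were summed per locus, leaving out loci with a failed estimate. A transcript was called at a deposited q-value of 0.05 or less, and loci of at least 1 FPKM in a genotype gave folds. No p-value was computed. Of the 63 genes reported in the lists, 29 had their own locus; 1 gene of the vesicle list is not reported here and is left out of its counts and median; the length tolerance was chosen after the values were seen, and genes were placed by hand-set hg19 points. The members and lists were chosen with earlier results of these data known. The text names every member, and per list up to 8 genes of at least 1 FPKM by level, and any with a call. Other genes are named where a zero or a low level is informative. Promoters are from RefSeq, which listed 3 of the 5 genes. Alternatives were the other table, 1 fixed transcript per gene, a pseudocount of 1, 2 scalings and other thresholds. Locus sums and counts were tested on simulated data. Python 3.11.15, pandas 2.3.3, numpy 2.4.6 and matplotlib 3.10.9 were used.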

Additional observations from a re-analysis of the deposited data

How the results depend on the processing

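The direction of the fold was kept for all 5 genes in the tracking table. That table is no independent check, because its wild type values were nearly a fixed share of those in the table of tests, at a median ratio of 0.976. For NEFM the direction is that of a sum that was not tested. The other settings of scale could not turn the direction, so its staying there is no support. Adding 1 FPKM to both genotypes keeps the sign of any fold. Centring on the median of all loci moved each log2 fold by 0.06, and rescaling without mitochondrial and short loci by 0.01. The log2 fold nearest to no change was -0.60, for NEFH. The linear fold of NES moved by more than 1.5 times in 2 of these settings, in which its log2 fold was -2.52 in the tracking table and -1.03 with 1 FPKM added, which shrinks the fold of a low gene. With 1 fixed transcript per gene NEFM gave no value, because ENST00000221166, which is not the highest row of its locus, was listed at 0 in wild type cells. The median log2 fold of the vesicle genes changed sign, at -0.05 in the table of tests and 0.10 in the tracking table; the cause was not tested. The 3 called transcripts remained 3 at a q-value of 0.025, at an unadjusted p under 0.05 and with a level of at least 1 FPKM. This count could not fall, so it shows nothing about stability. Each of the 3 had a q-value of 0.0220 in the authors' deposited table and a wild type value above 1 FPKM. No paired analysis was possible because the tables hold 1 value per genotype and none per library, and leaving out single libraries was not run for the same reason. Depth is unknown, so a change in NEFM or NEFH below the width of the authors' intervals could not be seen.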

Other observations

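Some genes of the lists lay in loci shared with other genes, so their values are those of the whole locus. The locus that holds the epithelial keratin genes KRT8 and KRT18 together, on chromosome 12 at 53290977-53346686, summed to 43.1 FPKM in knockout cells and 434.2 FPKM in wild type cells over 27 transcripts. In the tracking table its knockout sum was 109.2 FPKM. None of its 15 tested transcripts passed a q-value of 0.05 in the authors' deposited table, and 2 had an unadjusted p under 0.05. The locus that holds UCHL1, a neuronal ubiquitin hydrolase, summed to 17.6 FPKM in knockout cells and 403.1 FPKM in wild type cells, with 2 called transcripts among 14. The locus that holds SNAP25, a protein of synaptic vesicle fusion, had no call. Its sum was 2.73 FPKM in knockout cells and 6.45 FPKM in wild type cells. The locus that holds VIM, the filament partner of nestin, summed to 550.6 FPKM in knockout cells and 493.6 FPKM in wild type cells, with no call and no unadjusted p under 0.05.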
